A study of Mus musculus with 12 samples.

Results

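BMAL1 peaks at the genes of the REV-ERB and ROR nuclear receptors were examined in control and senescent mouse adult fibroblasts (MAFs). The genes were Nr1d1 (REV-ERBα), Nr1d2 (REV-ERBβ), Rora (RORα) and Rorb (RORβ). A peak was counted for one of them when the nearest protein-coding start site to its midpoint, in the GENCODE M21 annotation of mm10, belonged to that gene. This gave 40 of the 35822 peaks in 6 lists, and they merged into 14 of 16818 regions at 4 of 21840 protein-coding genes.

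The study asked where BMAL1 lies on chromatin in senescent cells. MAFs are primary fibroblasts, here from ear tissue of female adult C57BL6/J mice, kept in DMEM with 10% serum at 3% oxygen. Control cells (n = 3 libraries) were sham irradiated, and senescent cells (n = 3 libraries) received 20 Gy of X-rays. Per the paper, the irradiated cells were then kept in culture for some weeks, and it states no such period for control cells. Cells of both groups were given 100 nM dexamethasone for 2 h, which synchronizes the clocks of cultured cells. They were collected 12 h later for BMAL1-ChIP-seq, so each group was seen at 1 time only and both carried the same glucocorticoid exposure. The paper reports a longer period of the Bmal1 transcript in senescent cells. The clock phase at 12 h may therefore differ between the groups, which was not tested. The sources used here do not say whether replicates were separate cultures or animals, so each p measures only the spread between these libraries. The deposited lists place and score the peaks but hold no read counts. The depth of each library is therefore unknown, no marker of the cell type can be read from them, and where a list has no peak BMAL1 may still have been bound. The lists differed in length, with 2794, 3349 and 10601 peaks in the control libraries and 4220, 9805 and 5053 in the senescent libraries, and the member genes held 6, 3 and 10 and 4, 12 and 5 of them.

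BMAL1 pairs with CLOCK and activates genes through the E-box CACGTG. Among the targets of the pair are the REV-ERB genes, whose products repress Arntl, the gene of BMAL1 itself, and members of the ROR family, whose products activate Arntl through the same response elements. REV-ERB proteins recruit the corepressor NCOR1 with the deacetylase HDAC3, and bind heme as a ligand.

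Stretches of sequence with E-boxes are shown first, because all of them lie inside the 3 member regions that were called in all 6 libraries. They are from the mm10 (GRCm38) genome, written 5′ to 3′ on the minus strand, which is the coding strand of both REV-ERB genes, with E-boxes and their near variants in capitals. The first lies upstream of the Nr1d1 start at chr11:98775657-98775725 and the next in an intron of Nr1d1 at chr11:98773834-98773904. A further one is in an intron of Nr1d2 at chr14:18238505-18238698. The distal stretch, at chr11:98783391-98783567, is intergenic and holds the E-box of the peak far upstream of Nr1d1. None of the 4 stretches overlaps an exon.
Nr1d1 upstream pair: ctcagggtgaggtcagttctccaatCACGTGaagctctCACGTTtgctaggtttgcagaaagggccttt
Nr1d1 intron pair: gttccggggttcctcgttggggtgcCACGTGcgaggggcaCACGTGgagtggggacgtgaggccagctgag
Nr1d2 intron E-boxes: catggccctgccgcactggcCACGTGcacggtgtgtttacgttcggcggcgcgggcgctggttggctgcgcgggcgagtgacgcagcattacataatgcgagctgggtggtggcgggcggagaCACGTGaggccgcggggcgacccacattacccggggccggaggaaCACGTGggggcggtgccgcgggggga
Nr1d1 distal E-box: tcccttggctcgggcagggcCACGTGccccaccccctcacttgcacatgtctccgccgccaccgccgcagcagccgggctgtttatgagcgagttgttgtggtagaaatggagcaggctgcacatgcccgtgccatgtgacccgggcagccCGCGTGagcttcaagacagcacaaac

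The upstream pair of Nr1d1 joined a CACGTG to a CACGTT, with 7 bp between them. The intron pair joined a CACGTG to another with 9 bp between them. In Nr1d2 the 3 copies of CACGTG stood 97 and 39 bp apart in the order of transcription. The distal stretch held a single CACGTG, with a CGCGTG, the reverse complement of the variant CACGCG, 125 bp further towards Nr1d1. Each E-box CACGTG in these stretches lay inside a called peak in 6 of 6 libraries.

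BMAL1 peaks at the REV-ERB genes were among the best-scoring of every list, whereas those assigned to Rora and Rorb were low-scoring and far from the start sites. The annotated start site lay inside a peak in 6 of 6 libraries for both Nr1d1 and Nr1d2, a property of 1.02% of all protein-coding genes. At Rora and Rorb, each with a pair of annotated starts, no start was inside a peak in any library (0 of 6). A peak in all 6 libraries was assigned to Nr1d1 and Nr1d2 and to 5.14% of all genes, while 63.6% of genes had none in any library. Rora and Rorb were between these, with a peak in 1 and in 4 libraries.

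**Figure D1:**
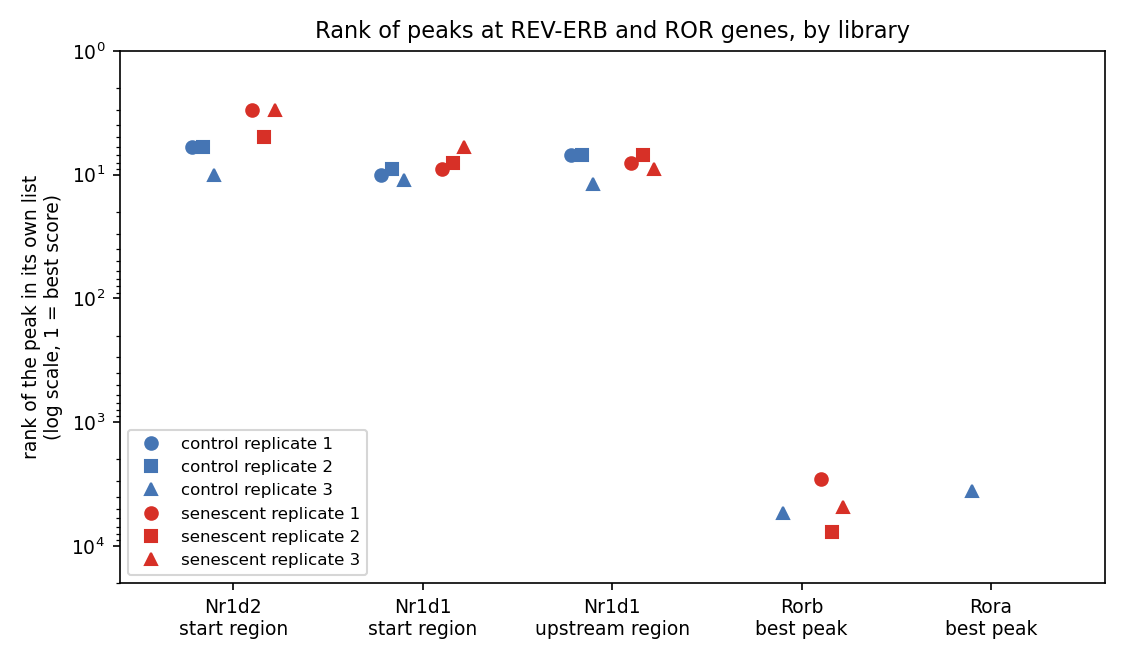
Rank of the peak in its own list (log axis, 1 is the best score) at 3 regions of the REV-ERB genes and for the best peak of Rorb and Rora. Each point is 1 library (blue control, red senescent), and a library without a peak has no point. The REV-ERB regions sat between rank 3 and rank 12 in every library, and Rorb and Rora at 2904.5 or worse.

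The REV-ERB proteins are the repressors of this loop. Of the 14 member regions, 7 belonged to Nr1d1 and 5 to Nr1d2, and 1 each to Rora and Rorb. The 3 called in all 6 libraries, against 6.58% of all regions, were 1 over the start of Nr1d2, 1 over the start of Nr1d1 and 1 upstream of Nr1d1. Their best peaks held ranks 3 to 12 and scores (taken as the −log10 of the q-value) of 341 to 1228. The other 19 peaks, apart from 3 small fragments beside the strong ones, scored 2.35 to 10.4.

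The Nr1d2 start region (chr14:18237444-18239643, 2200 bp) lay across the start site at position 18239127, and the midpoints of its main peaks were 409 to 655 bp into the gene, in an intron. Its peak ranked 6, 6 and 10 in control libraries, in the order of replicates 1, 2 and 3 used throughout. The senescent libraries had it at ranks 3, 5 and 3. All senescent ranks were thus better than all control ranks. The control libraries had a mean log10 rank of 0.85 ± 0.13 (SD, n = 3), and the senescent ones of 0.55 ± 0.13 (SD, n = 3). The exact two-sided permutation test of this difference of −0.30 gave p = 0.1, the smallest value that 3 against 3 libraries can give. Adjusted over the 1123 genes with a peak in all 6 libraries (Benjamini-Hochberg), the permutation p was 0.265. This was the smallest adjusted value of any of these genes, so no gene could pass the threshold of 0.05. Among those genes, 18.3% had better ranks in all senescent libraries and 19.4% had worse ranks in all of them. Nr1d2 was 1 of the former, Nr1d1 was in neither set.

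The Nr1d1 start region (chr11:98772311-98776356, 4046 bp) was the broadest, running from upstream of the start at position 98775333 into the gene. The midpoints of its main peaks were 853 to 1036 bp past the start, in an intron. Its ranks were 10, 9 and 11 in control and 9, 8 and 6 in senescent libraries. These overlapped at rank 9. The log10 rank differed by −0.12, and the exact permutation test gave p = 0.2 (n = 3 against 3), or 0.401 when adjusted over the 1106 regions called in all 6 libraries.

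The Nr1d1 upstream region (chr11:98782616-98784322, 1707 bp) is intergenic, between Nr1d1 and Msl1, with main peaks centred 8093 to 8238 bp before the Nr1d1 start. It ranked 7, 7 and 12 in control and 8, 7 and 9 in senescent libraries. The groups overlapped fully, with a difference of −0.02 on the log10 scale (exact permutation test, p = 1.0, n = 3 against 3). That sign turned to 0.06 without control replicate 3 and to 0.01 without senescent replicate 2. By rank, this region stood ahead of the start region of Nr1d1 in 4 of 6 libraries, and the Nr1d2 start region stood ahead of both in 6 of 6. The best peak of Nr1d1, at either of its 2 strong regions, ranked 7, 7 and 11 in control and 8, 7 and 6 in senescent libraries. Tested by gene as for Nr1d2, its log10 rank differed by −0.07 (exact permutation test, p = 0.6, adjusted p = 0.784, n = 3 against 3). Of the 3 member regions, 1 ranked better in all senescent libraries, beside 17.6% of all regions called in 6 libraries.

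Mitochondrial peaks took high places in the control lists, with best ranks of 9, 10 and 4, against 197, 118 and 74 in the senescent lists. Ranked without them, the Nr1d2 start region was at 6, 6 and 7 in control and 3, 5 and 3 in senescent libraries. In the same ranking the Nr1d1 start region was at 9, 9 and 8 and at 9, 8 and 6. The upstream region was at 7, 7 and 9 and at 8, 7 and 9, a difference of 0.02 on the log10 scale in place of −0.02. The groups still did not overlap at Nr1d2 in that ranking.

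The scores themselves were higher in every senescent than in every control library at all 3 regions, beside 36.5% of regions called in 6 libraries, but a score of this kind grows with the depth and the background of its own library. At the Nr1d2 start region they were 454, 506 and 627 in control and 1166, 1228 and 1118 in senescent libraries. Over the Nr1d1 start the scores were 341, 373 and 604 against 748, 893 and 836. Upstream of Nr1d1 they were 448, 452 and 549 against 822, 897 and 788. To set them on a scale shared within each list, each score was divided by the highest score of its list, which belonged in every library to a peak of Per1 or Ciart, both clock repressor genes.

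On that scale the Nr1d2 start region stood at 49.0%, 42.1% and 38.1% of the top score in control and at 67.3%, 64.0% and 71.7% in senescent libraries. The groups did not overlap, with means of 43.1% ± 5.50 (SD, n = 3) and 67.7% ± 3.85 (SD, n = 3). The difference was 24.6 percentage points, and it had an exact permutation p of 0.1, or 0.279 when adjusted over 1106 regions. At the start of Nr1d1 the peak stood at 36.8%, 31.0% and 36.7% in control and at 43.2%, 46.5% and 53.6% in senescent libraries. These groups did not overlap either, and the difference of 12.9 points had the same permutation p of 0.1 and adjusted p of 0.279 (n = 3 against 3). The upstream region stood at 48.4%, 37.6% and 33.4% and at 47.4%, 46.7% and 50.6%. Here the groups overlapped, with a difference of 8.46 points (exact permutation test, p = 0.3, adjusted p = 0.518, n = 3 against 3), which was 12.8 without control replicate 1 and 5.27 without control replicate 3. The share was thus higher in all senescent libraries at 2 of the 3 member regions, beside 25.1% of all regions called in 6 libraries, and lower in all of them at 0 of 3, beside 10.7%. The median difference over all those regions was 0.131 points. None of these differences passed the threshold after adjustment. With 3 against 3 libraries no region could, and 0.279 was the smallest adjusted p of any region on this scale.

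**Figure D2:**
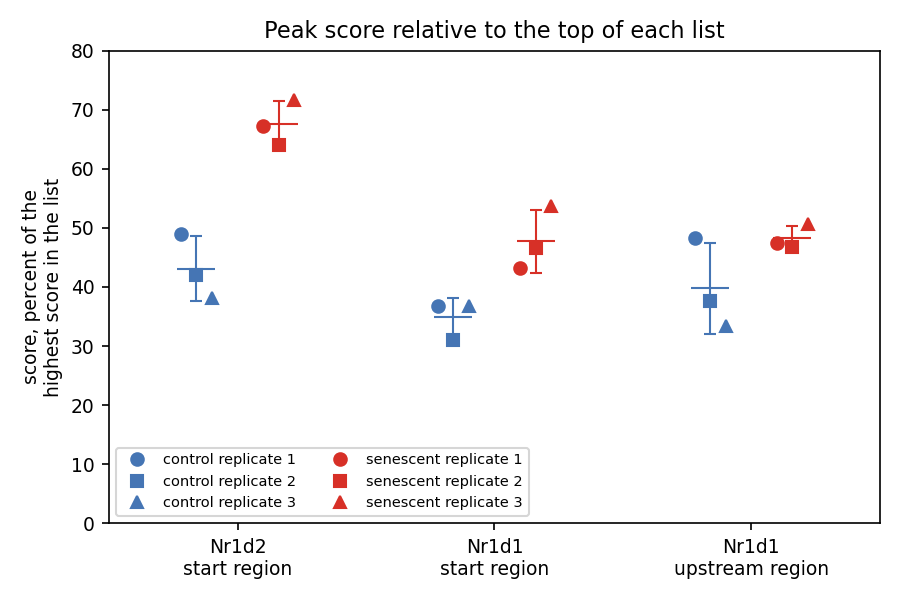
Peak score as a percent of the highest score in the same list, for the 3 regions called in all 6 libraries. Points are libraries (blue control, red senescent), and the horizontal marks and bars are the mean and SD of 3 libraries. At the Nr1d2 start region control libraries lie between 38.1% and 49.0% and senescent libraries between 64.0% and 71.7%, and only the upstream region of Nr1d1 has overlapping groups.

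Peak width did not separate the groups at any of the 3 regions (0 of 3 were wider in all senescent libraries, beside 31.0% of regions called in 6 libraries). Over the Nr1d1 start the main peaks were 3250, 3504 and 3612 bp in control and 3717, 3584 and 3981 bp in senescent libraries. It was the widest peak of the list of senescent replicate 1 and lay within the 6 widest of every list. At Nr1d2 the widths were 1586, 1936 and 2056 bp in control and 1681, 2025 and 1741 bp in senescent libraries. At the upstream region they were 925, 1308 and 1707 bp and 1458, 1462 and 1579 bp. The differences in log2 width were 0.12, −0.03 and 0.23, with exact permutation p of 0.2, 0.9 and 0.5 in the same order (n = 3 against 3). Leaving out 1 library moved them to between 0.08 and 0.16 over the Nr1d1 start, −0.14 and 0.05 at Nr1d2, and 0.00424 and 0.45 at the upstream region, the last pair without control replicates 1 and 3.

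The number of called peaks varied within both groups. At Nr1d1 there were 3, 2 and 5 in control and 2, 8 and 3 in senescent libraries (exact permutation test, p = 0.9, adjusted p = 1.0). The mean was 1 peak higher in senescent libraries, and 0.833 lower without senescent replicate 2. At Nr1d2 there were 3, 1 and 3 in control and 1, 3 and 1 in senescent libraries (exact permutation test, p = 1.0). With a peak in any library, 5.12% of 7948 genes had more peaks in all senescent than in all control libraries and 1.84% had fewer. None of the 4 members was among either. Of the 19 peaks in the weaker regions, 15 came from the 2 longest lists, control replicate 3 and senescent replicate 2.

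The weaker Nr1d1 regions were spread over both sides of the gene. Upstream, a peak at 1565 to 1730 bp from the start was called in control replicate 3 and senescent replicate 2. Peaks at 1116 and 9112 bp were called in senescent replicate 2 alone. Past the start, a peak at 6350 to 6471 bp was called in control replicate 3 and in senescent replicates 2 and 3. Its midpoint lay in an intron of Nr1d1 that overlaps a UTR exon of Thra, the thyroid hormone receptor gene that runs towards Nr1d1 on the other strand. A peak at 12053 to 12057 bp lay in an intron of Thra, and was called in control replicate 3 and senescent replicate 2. It had the best score of all weaker regions, 10.4, at rank 2784.5 of 9805 in senescent replicate 2.

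**Figure D3:**
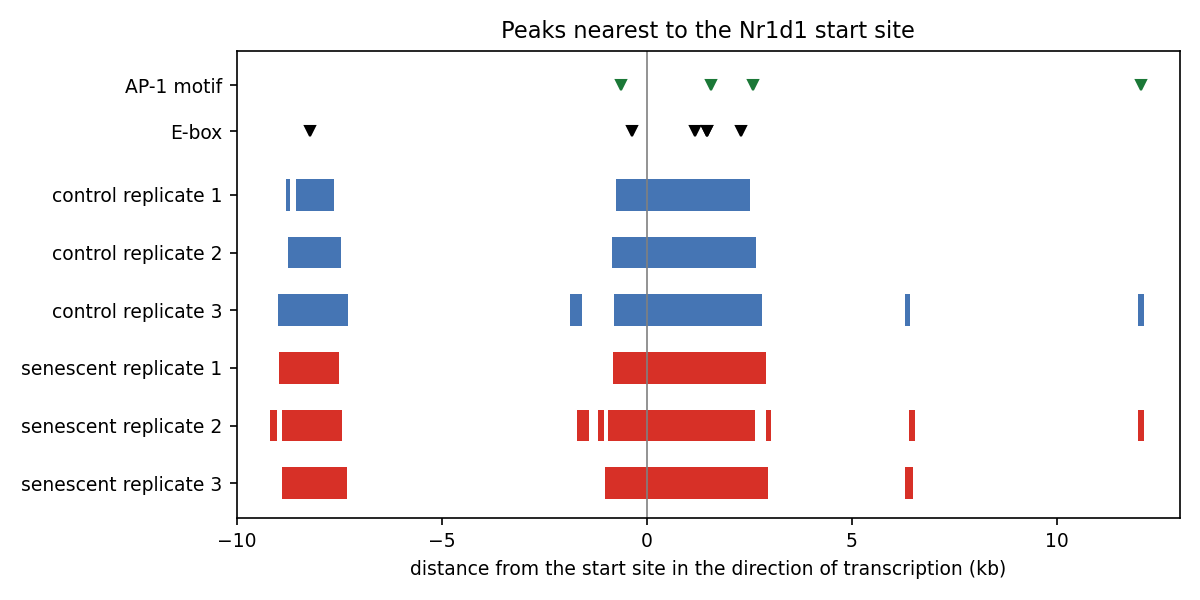
Called peaks nearest to the Nr1d1 start site in each library, drawn as bars to scale against the distance from the start (kb, positive in the direction of transcription), blue for control and red for senescent. Triangles mark E-boxes (CACGTG, black) and AP-1 motifs (green) found within the called regions. The bars over the start and about 8 kb upstream are present in all 6 libraries, and the other bars come mostly from control replicate 3 and senescent replicate 2.

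The weaker Nr1d2 regions were called in 1 or 2 libraries each. A peak 1852 bp past the start was called in control replicate 1, and one at 2470 bp in senescent replicate 2. Another at about 4931 bp was called in control replicate 3 and senescent replicate 2. These were all in an intron of Nr1d2. The most distant was intergenic, 117873 bp beyond the start, and was called in control replicate 3. Over all members, 6 of 14 regions were called in 1 library, beside 55.7% of all regions. Among the 14, 0 were called in at least 2 senescent and no control libraries and 0 the other way round, beside 9.44% and 5.86% of all regions.

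RORα and RORβ are activators that compete with the REV-ERB proteins for shared elements, and Rora is the more widely expressed of them. The single Rora peak (chr9:68827413-68827905, 493 bp) was called in control replicate 3 and lay 173873 bp into the gene, in an intron. It had a score of 8.63 and ranked 3574.5 of 10601, with no peak in the other 5 lists. The single Rorb region (chr19:18890251-18890662, 412 bp) was outside the gene, in an intron of Trpm6, a gene of a magnesium channel. It lay 110511 to 110776 bp downstream of the nearer of the Rorb start sites, and past the end of Rorb at position 18930605.

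The Rorb region had rank 5434.5 in control replicate 3, and all senescent libraries called it, at ranks 2904.5, 7711.5 and 4838.5. Its scores were 6.68 in that control library and 6.05, 5.04 and 3.34 in the senescent libraries, which placed it 51.3% of the way down the list in the former and 68.8%, 78.6% and 95.8% in the latter. It was the only member region with 3 senescent calls and 1 control call, a pattern of 3.35% of all regions. The peaks of the 4 libraries did not cover the same bases, and that of senescent replicate 3 (chr19:18890267-18890414) did not touch those of senescent replicates 1 and 2. The number of peaks at Rorb was 0, 0 and 1 in control and 1, 1 and 1 in senescent libraries (exact permutation test, p = 0.4, adjusted p = 1.0). When only the 2794 best peaks of each list were kept, Rora and Rorb had 0 peaks in every library.

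**Figure D4:**
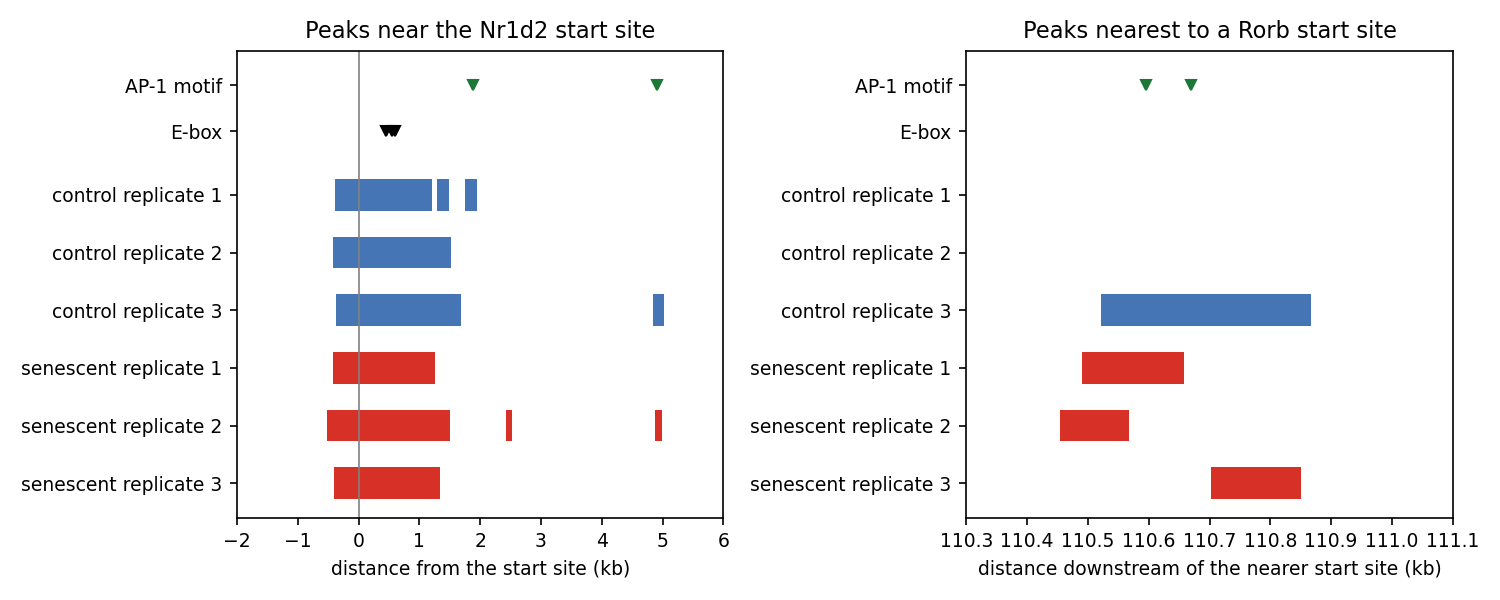
Called peaks around the Nr1d2 start (left) and in the region assigned to Rorb (right), against the distance from the start in kb, with bars and triangles as in the plot of Nr1d1 peaks. All 6 libraries have a bar across the Nr1d2 start with 3 E-boxes inside it, whereas 4 libraries have a peak at the Rorb region, which holds 2 AP-1 motifs and no E-box.

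The spans of genome nearest to the members' starts differed in size, so the numbers of regions were set against them. The Nr1d1 start was the nearest for 26.8 kb of genome, with 26.1 regions per 100 kb. For Nr1d2 the span was 145 kb with 3.46 regions per 100 kb, for Rora 1097 kb with 0.0912, and for Rorb 875 kb with 0.114. Over all genes the density was 0.622 regions per 100 kb. All these densities count weak regions, and lists of equal length left 5 of the 14 member regions. As many regions as Nr1d1 had were found at 1.38% of genes, and as many as Nr1d2 had at 3.17%. Of the 293 genes with a span at least as large as that of Rora, 77.8% had at most 1 region, as Rora did.

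E-boxes were found in the strong and not in the weak member regions, which also differ in length. CACGTG was present in 3 of the 3 regions called in 6 libraries and in 0 of the 11 others. Those 11 were 103 to 493 bp long, and 16.7% of all regions held at least 1 CACGTG in a window of 201 bp. Motifs were searched as exact letters on both strands. The Nr1d1 start region held 5 copies, and at least 5 were found in 0.434% of all regions when a window of the same 4046 bp was placed on each. Its copies lay 365 bp upstream of the start and 1177, 1457, 1472 and 2293 bp past it, and the upstream copy and its neighbour CACGTT are those printed above. Such a pair, 6 or 7 bp apart, was in 0.410% of windows of that length. The Nr1d2 start region held 3 copies, at 452, 555 and 600 bp past the start, and 2.83% of windows of 2200 bp held at least as many. The upstream region of Nr1d1 held 1, and 37.2% of windows of 1707 bp held at least 1.

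Within 100 bp of the midpoint of the best peak by rank, an E-box was found only at Nr1d2, where there were 2. Of all regions, 16.7% held at least 1 in such a window, but their best peak was chosen by rank as a percent of the list. By that rule the best peak of the Nr1d1 upstream region would be that of senescent replicate 2 (0.0714%). In the Nr1d1 start region no CACGTG was within 100 bp of the midpoint of any main peak. In the upstream region the midpoint used was that of control replicate 1 (98783426), which shared rank 7 with control replicate 2 and senescent replicate 2. The E-box at 98783542 lay beyond 100 bp of that midpoint. It lay within 100 bp of those of control replicate 3 (98783469) and of the senescent replicates (98783571, 98783495 and 98783448). The lists give no summits, so the position of highest signal within these peaks is not known.

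AP-1 is the dimer of FOS and JUN family proteins, and its motif was read as TGACTCA or, on the other strand, TGAGTCA. It was found in 5 of the 14 regions, of which 1 was called in 6 libraries. The Nr1d1 start region held 3 copies, 635 bp upstream and 1554 and 2592 bp past the start, and at least 3 were found in 8.18% of windows of 4046 bp. Single copies lay in the Thra intron region and in 2 weak regions of the Nr1d2 intron, where 13.5%, 15.0% and 16.1% of windows of those lengths (145, 170 and 193 bp) held at least 1. The Rorb region held 2, beside 3.60% of windows of 412 bp. The sequences of the Rorb region (chr19:18890425-18890544) and of the Thra intron (chr11:98763241-98763297) are shown because they carry AP-1 motifs without an E-box. They are also on the minus strand, with the AP-1 motif in capitals.
Rorb region: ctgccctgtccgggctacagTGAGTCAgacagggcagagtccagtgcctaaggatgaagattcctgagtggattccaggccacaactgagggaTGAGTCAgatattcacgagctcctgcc
Thra intron, assigned to Nr1d1: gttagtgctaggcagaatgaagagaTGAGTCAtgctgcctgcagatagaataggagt

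The peak of control replicate 3 covered both motifs of the Rorb region and that of senescent replicate 1 covered 1. Those of senescent replicates 2 and 3 covered neither. The motif of the Thra intron lay inside the peaks of control replicate 3 and senescent replicate 2. At the Nr1d1 start, the copies 635 bp upstream and 1554 bp past the start were inside peaks of 6 of 6 libraries, and the copy at 2592 bp inside those of 5.

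Among 15 other clock genes, 11 had a peak in all 6 libraries, and Clock and Npas2, the genes of the partners of BMAL1, had none. Arntl, the target of REV-ERB and ROR proteins, had peaks in 3 libraries, ranked 1838 or worse. Of the 11, the groups did not overlap at 6, with better senescent ranks at Per3, Cry2, Hlf and Bhlhe41 and worse ones at Tef and Bhlhe40, beside 18.3% and 19.4% of all 1123 genes. The median difference of the clock list in log10 rank was 0.01, beside 0.02 over all 1123 genes. Differences near the −0.30 of Nr1d2 were seen at Hlf (−0.34) and Bhlhe41 (−0.24). Their best peaks lay away from the start sites, at −27468 bp for Hlf and 9357 bp for Bhlhe41 (negative is upstream). The best peaks of Cry2 (10382 bp) and Arntl (−59586 bp) were also distant.

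**Figure D5:**
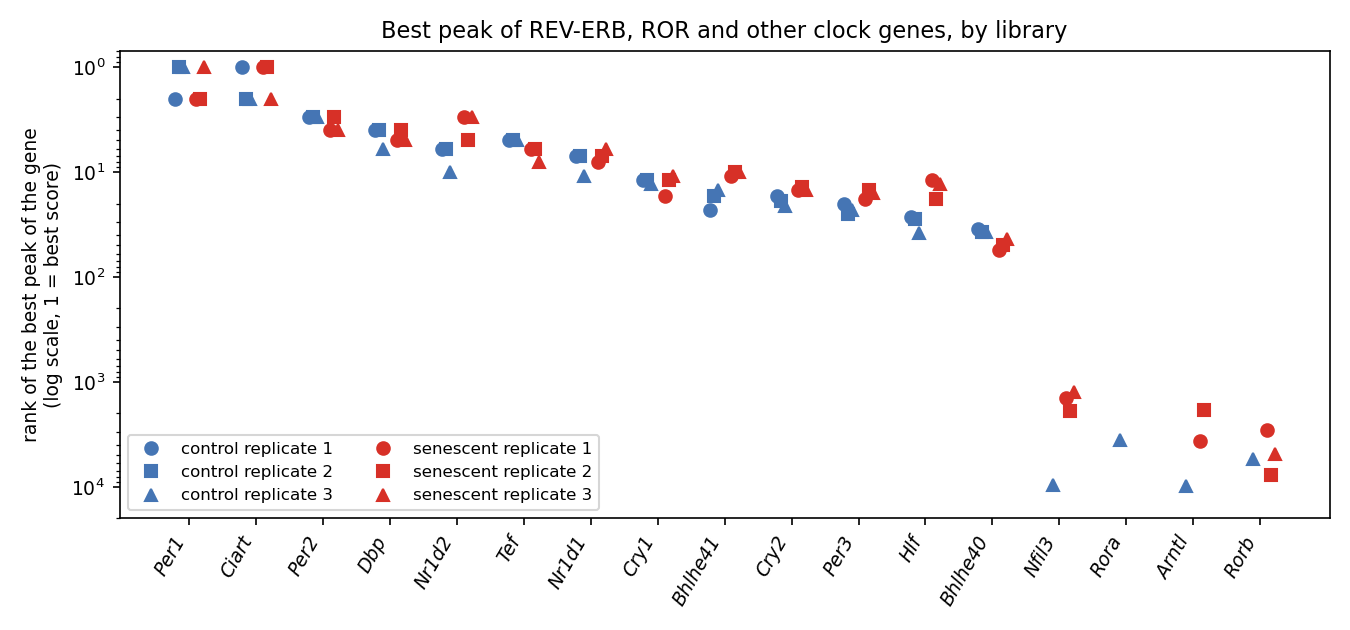
Rank of the best peak (log axis, 1 is the best score) for the REV-ERB genes, Rora, Rorb and the other clock genes that had a peak, ordered by median rank. Each point is 1 library (blue control, red senescent). Nr1d2 and Nr1d1 sit among the best-ranked clock genes, within ranks 3 to 11, while Rora and Rorb sit at rank 2904.5 or worse, with Arntl close by.

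The products of the cofactor genes act with or on the receptors. Of 12 such genes, 2 had a peak in all 6 libraries, Tbl1xr1 of the NCOR complex at ranks 149.5 to 838 and the coactivator gene Ppargc1a at ranks 553.5 to 2904.5. The best peaks lay 599 kb and 41.8 kb from the start sites of these genes. The ranks of both were worse in all senescent libraries, beside 19.4% of all genes, with permutation p of 0.1 and adjusted p of 0.265 each (exact test, n = 3 against 3). No peak was called at 6 of the 12, among them the corepressor genes Ncor1 and Hdac3. The gene whose ranks were most like those of Nr1d1 over the 6 libraries was Lsm3, an RNA-processing gene, with a mean absolute difference of 0.07 in log10 rank, although its best peak was 83.2 kb from its start. Tef and Nr1d2 followed at 0.16 and 0.17. For Nr1d2 the nearest were Nr1d1 (0.17), Dbp (0.19) and Tef (0.21), of 1122 genes compared, and Dbp and Tef encode PAR bZIP factors of the clock output.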

How the data were processed

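BMAL1-ChIP-seq peaks were examined in 6 libraries of MAFs, 3 control and 3 senescent, grouped and numbered from the sample titles. The 6 input libraries were not analysed here. The authors mapped paired-end reads to mm10 with the Burrows-Wheeler Aligner, required a uniquely mapped end in each pair, discarded duplicates (Picard MarkDuplicates) and called peaks per library at an FDR of 1%. The MACS2 version and the use of the input are not given in the sources used here. The score deposited by the authors was read as −log10 of the q-value, from values that all exceed 2. It is not normalized between libraries, so peaks were ranked within each list, with tied scores sharing the mean rank. Per the file headers all libraries came from the same lane.

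Midpoints were assigned to the nearest of 41451 protein-coding starts, and peaks overlapping by at least 1 bp were merged. Group means were compared with the exact two-sided permutation test over 20 arrangements, with Benjamini-Hochberg adjustment over all genes or regions tested. The mean rank was taken on the log10 scale and the width on the log2 scale. Promoter sequences and motif positions came from GRCm38, the former from RefSeq. Named genes were the members, 15 clock genes, 12 cofactor genes and the 3 genes of most similar rank. A further gene of this rule is not reported here. The members, lists and tests were chosen with earlier results of these data known. Alternatives were lists of equal length (2794 peaks), scores above the list median, 1 start per gene, starts of all gene types, gene bodies with 5 kb on each side, pairing by number, an overlap of 50%, other scales of rank and width, a motif window of 100 bp and leaving out each library. Ranking without mitochondrial peaks, and the tests of single regions by rank, width and share of the top score, were chosen after seeing the data. Python 3.11.15, numpy 2.4.6, pandas 2.3.3, scipy 1.17.1, pysam 0.24.0 and matplotlib 3.10.9 were used, and the assignment, merging and test were checked on simulated data.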

Additional observations from a re-analysis of the deposited data

How the results depend on the processing

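Of 232 values recomputed for 23 results, 205 were classed as the same, 12 reversed and 15 moved. For differences between groups the same meant the same sign, whatever the size, and for counts of genes or regions a similar count. Shorter lists left the rank, width and score share values of the REV-ERB regions unchanged. The 205 therefore do not measure how stable the sizes were. No result passed the threshold under any setting, since 3 against 3 libraries cannot go below 0.1. With equal list lengths the member regions numbered 5 in place of 14, and the peak count differences at Nr1d1, Rora and Rorb were 0. In those lists 137 of 766 genes had worse senescent ranks, beside 218 of 1123 in the full lists. Keeping scores above the list median gave 6 member regions, differences of 0 at Nr1d1 and Rorb, and 119 and 127 genes with better and worse senescent ranks, from fewer genes tested. The Rorb difference was also 0 with 1 start per gene and with gene bodies. Regions with an E-box numbered 1 within 100 bp of the midpoint. That count depended on which of the tied best peaks of the Nr1d1 upstream region was used. Without mitochondrial peaks the rank difference of the Nr1d1 upstream region was 0.0193 in place of −0.02.

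Leaving out each library in turn gave rank differences of −0.37 to −0.23 at Nr1d2, −0.10 to −0.00298 for the best peak of Nr1d1, −0.16 to −0.07 for its start region and −0.0613 to 0.0557 for its upstream region, positive without control replicate 3 (0.0557) or senescent replicate 2 (0.00554). The log2 width difference ranged from −0.141 to 0.0465 at Nr1d2, turning positive without control replicate 2 (0.00310), control replicate 3 (0.0465) or senescent replicate 1 (0.0228). For the best peak of Nr1d1 it ranged from −0.16 to 0.89, against 0.32 with all libraries, negative without control replicate 1 (−0.09) or senescent replicate 3 (−0.16), since the best peak is at either of its 2 strong regions. Over the Nr1d1 start it ranged from 0.08 (without control replicate 1) to 0.16, and at the upstream region from 0.00424 to 0.45. The difference in share of the top score ranged from 22.1 to 27.6 points at Nr1d2, 9.99 to 15.2 over the Nr1d1 start and 5.27 to 12.8 at the upstream region. Peak count differences ranged from −0.833 to 2.17 at Nr1d1 and −0.5 to 0 at Rora, the latter 0 without control replicate 3. Genes with better senescent ranks numbered 244 (of 1200) to 315 (of 1368), highest without control replicate 1, beside 205 of 1123 with all libraries. Fewer libraries leave fewer ranks to separate, so these counts are not comparable with that of all libraries. The causes of these changes were not tested.

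Same-numbered libraries did not deviate together (correlations of 0.0808, −0.0436 and −0.00159 over 1123 genes). With 3 libraries per group this cannot tell whether the numbers pair them. With a replicate block the exact permutation p was 0.25 at Nr1d2, the smallest that 3 pairs can give, and 282 and 301 genes had better and worse senescent ranks in all pairs.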

Other observations

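The 300 bp around the annotated RefSeq starts (GRCm38, mostly upstream sequence) held no CACGTG in any of the 5 promoters matched for the 4 members, beside 7.15% of all 32851 promoters with at least 1. CACGTT was present once in the Nr1d1 promoter and once in 1 of the Rorb promoters, beside 4.68% of all promoters. The E-boxes of the REV-ERB genes described above therefore lay outside this window, upstream of it or in an intron.

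Other motifs were counted on both strands in the same regions. The D-box (TTATGTAA or TTACGTAA), which PAR bZIP factors and NFIL3 bind, was found once in the Nr1d1 start region and in 2 copies in the Nr1d2 start region, of which 1 lay between the E-boxes printed above, 521 bp past the start. In windows of the same lengths, 16.4% of all regions held at least 1 D-box (4046 bp) and 0.749% at least 2 (2200 bp). A glucocorticoid receptor element was found once, in the Nr1d2 start region, 885 bp past the start, beside 4.04% of windows of 2200 bp. TAGGTCA, read by REV-ERB and ROR proteins, was found once in the Nr1d1 start region and once in the Rora region, which was called in 1 library. AAGGTCA was found in both start regions and in 1 weak region upstream of Nr1d1. Its copy in the Nr1d1 start region lay inside a peak of 1 library only. Of all regions, 1.75% held TAGGTCA and 3.03% AAGGTCA in a window of 201 bp. Shares in windows as long as these regions were not computed.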
